A study of Mus musculus with 10 samples.

Results

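The TRIM genes encode a large family of proteins, most of them E3 ubiquitin ligases, and were followed here in microglia, the resident macrophages of the brain, after a systemic dose of lipopolysaccharide (LPS). Members were all genes of the count table whose symbol starts with Trim followed by a digit and whose counts summed to at least 100 over the 10 libraries. Of 40789 genes in the table, 69 carried such a symbol and 38 passed the sum. Another 31 lay below it, 8 of them with no count in any library. The sum over both groups chose the members, so their abundance is a description. The rule itself did not use the difference between the groups. Members, and the lists used below, were however chosen with earlier results of these data known.

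Microglia came from the cortex of 10 female mice of the C57BL6/J background, 2 to 3 months old. All 10 were CX3CR1+/egfp, so that a green fluorescent reporter took the place of 1 Cx3cr1 copy (the fractalkine receptor gene) and the controls too had a single working copy. Mice received 4 mg/kg LPS, a bacterial cell wall component that engages Toll-like receptor signalling, into the peritoneum (n = 5), or saline by the same route (n = 5). Cells with high reporter fluorescence were sorted 24 hours after the injection, and 1 library was made per mouse. Library totals were 11577295 to 15274421 counts in saline and 12928007 to 15332121 counts in LPS.

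A typical TRIM protein carries a RING domain, which binds the ubiquitin-conjugating (E2) enzyme, followed by B-box domains and a coiled coil. The carboxy-terminal part differs between members and sets what the protein binds. Many members with a SPRY domain at that end are induced by interferon and act in antiviral defence or tune innate immune signalling, while others act in chromatin, on microtubules or on membranes. Mice have an expanded cluster of SPRY-type members beside Trim5 on chromosome 7, including the rodent Trim30 genes.

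From general knowledge 16 TRIM genes were listed as interferon-induced. Of these, 13 were members and 3 fell below the sum, namely Trim38 with 51 counts, Trim34b with 22 and Trim69 with 11. The other 25 members were grouped by role as chromatin-linked (3), NHL-repeat (3), microtubule-linked with a COS box (1), membrane-anchored (1) and the remainder (17). Just inside the sum lay Trim72 with 127 counts and Trim45 with 279. Just outside lay Trim67 and Trim15. Trim67 had 24, 16, 10, 15 and 8 counts in the saline libraries and 0, 0, 0, 0 and 1 in the LPS libraries. Trim15 had 17, 3, 2, 17 and 9 counts in saline and 1, 2, 8, 3 and 2 in LPS.

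The promoter sequence of the members was compared with the core of the interferon-stimulated response element, the motif that interferon-activated transcription factors bind. The searched letters were GAAANNGAAA, or TTTCNNTTTC on the other strand, in the 250 bases before each transcript start that the promoter table lists, and overlapping matches were counted. A gene can have several such starts, and the Trim5 match lies before a start that is inside the annotated gene. Sequences are from RefSeq (GRCm38.p6), in which all 69 symbols were found and 28 of the 38 members had a promoter window. The motif was present for 5 of 12 interferon-induced members with a window (41.7%) and for 0 of 16 other members, against 936 of all 27025 genes with a window (3.46%). The 5 stretches are shown because they let the interferon-induced members be compared letter by letter. Capitals mark the motif, and sequences read 5′ to 3′ on the strand of the gene.
Trim30a, chr7:104465194-104465269, minus strand: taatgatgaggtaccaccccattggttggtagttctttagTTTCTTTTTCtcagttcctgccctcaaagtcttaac
Trim30d, chr7:104507854-104507930, minus strand: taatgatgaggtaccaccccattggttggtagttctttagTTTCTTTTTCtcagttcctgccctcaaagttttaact
Trim12c, chr7:104353359-104353418, minus strand: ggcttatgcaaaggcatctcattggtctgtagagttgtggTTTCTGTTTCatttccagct
Trim5, chr7:104288136-104288165, minus strand: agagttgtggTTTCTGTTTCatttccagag
Trim26, chr17:36836946-36837041, plus strand: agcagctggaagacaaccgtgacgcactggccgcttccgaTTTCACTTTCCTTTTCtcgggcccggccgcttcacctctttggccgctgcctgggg

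Trim30a and Trim30d shared the same motif letters, and their 250-base windows were identical at 227 of 245 aligned bases (92.7%). Trim5 and Trim12c also shared their motif letters, with 219 of 230 aligned bases identical (95.2%). Trim26 held 2 overlapping matches. These matches are descriptions of the letters. Of the 5 genes, Trim30a and Trim30d were higher in LPS and the other 3 were not called in the results that follow, while Trim30b, Trim25 and Trim34a were higher in LPS and had no match in their windows.

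Counts of LPS and saline mice were compared by the quasi-likelihood F test of edgeR. P-values were adjusted by Benjamini-Hochberg over all 13793 genes tested, and a gene was called at an adjusted p under 0.05. All 38 members were tested. Levels are in CPM, the count of a gene relative to the TMM-scaled total of its library, as mean ± SD over 5 mice. A positive log2 fold change means a higher level in LPS. The error beside it is the standard error of the difference in mean log2 CPM, and does not come from the edgeR fit. Of the 38 members, 7 were higher in LPS, 8 were lower and 23 were not called. Over all genes tested 45.0% were called, 22.4% higher and 22.5% lower, so the share of members called (39.5%) was close to that of genes in general. The median log2 fold change of the members was 0.01, beside 0.00 for all genes tested.

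The 2 subsets were read separately. Of the 13 interferon-induced members, 5 were higher (38.5%) and 0 lower, with a median log2 fold change of 0.56. Among the 25 others, 2 were higher (8.0%) and 8 lower (32.0%), with a median of −0.30. With each library's trend over gene length removed, these others had 5 higher and 2 lower calls, and the interferon-induced members 7 higher and 0 lower. No test compared the subsets. They were drawn from knowledge of interferon responses, with earlier results of these data known.

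**Figure D1:**
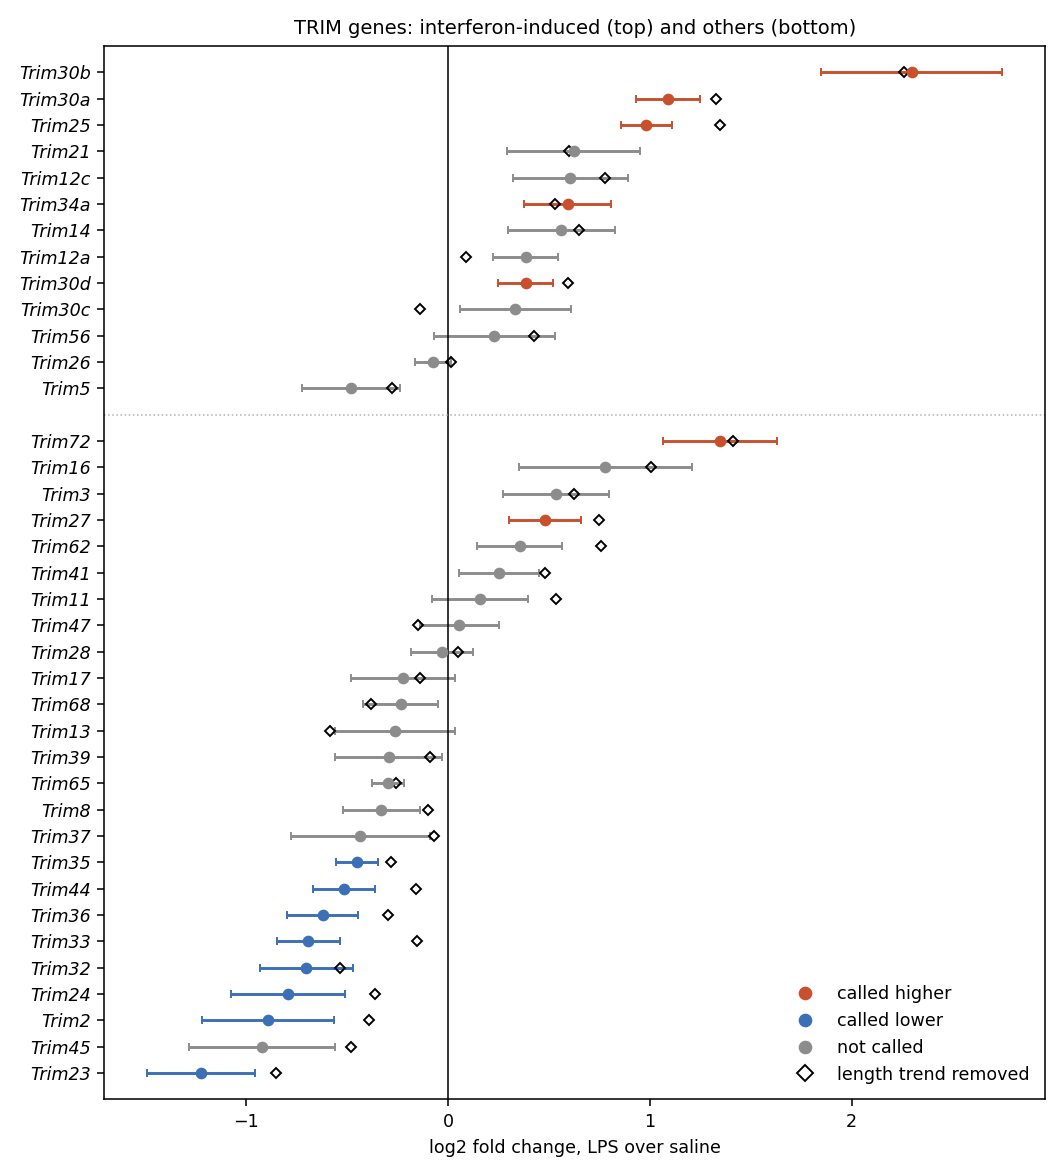
Log2 fold changes (LPS over saline, x axis) of the 38 TRIM genes, interferon-induced genes on top. Bars are standard errors of the difference in mean log2 CPM, from 5 and 5 mice. Filled points are red where called higher, blue where called lower and grey where not called, and open diamonds give the value with the length trend removed. Trim30b is farthest to the right at 2.30 and Trim23 farthest to the left at −1.22.

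Among interferon-induced members, Trim30b showed the largest fold change. Trim30b is a member of the Trim30 group on chromosome 7 (104355398 to 104358646, GRCm38; Entrez gene 244183). Its level was 0.659, 2.12, 2.02, 2.25 and 0.783 CPM in the 5 saline mice and 9.54, 6.22, 8.0, 11.2 and 3.44 CPM in the 5 LPS mice. The lowest LPS mouse lay above the highest saline mouse. The mean went from 1.57 ± 0.777 to 7.68 ± 3.01 CPM (log2 fold change 2.30 ± 0.45, 4.91-fold, adjusted p = 0.000449 in edgeR). In counts, this gene had between 10 and 36 per saline library.

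Trim30a, which is known to restrain Toll-like receptor signalling by promoting loss of the adaptor TAB2, was the most abundant member (chromosome 7, 104409025 to 104465193; Entrez gene 20128). It stood at 147, 131, 108, 128 and 102 CPM in saline mice and at 315, 217, 320, 235 and 224 CPM in LPS. The groups did not overlap. Its mean rose from 123 ± 18.6 to 262 ± 50.9 CPM (log2 fold change 1.09 ± 0.16, 2.13-fold, adjusted p = 0.000104 in edgeR). Trim30a supplied 12.3% ± 1.67 of all counts of the 38 members in saline and 23.5% ± 3.74 in LPS.

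Trim25, the ligase that modifies the RNA sensor RIG-I, lies outside the cluster on chromosome 11 (88999403 to 89020294; Entrez gene 217069). It measured 19.1, 18.6, 22.6, 22.0 and 18.7 CPM in saline mice, and 50.9, 32.6, 38.9, 41.8 and 35.5 CPM in LPS. Again the groups did not overlap, and the 5 saline mice lay within a narrow range. The mean rose from 20.2 ± 1.93 to 39.9 ± 7.02 CPM (log2 fold change 0.98 ± 0.12, 1.98-fold, adjusted p = 0.000138 in edgeR). Groups did not overlap for 29.8% of all genes tested (14.1% higher, 15.7% lower) and for 3 of the 13 interferon-induced members.

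The remaining pair of called interferon-induced members changed less, and their groups overlapped. Trim34a, first described as an interferon-responsive finger protein (chromosome 7, 104244448 to 104262244; Entrez gene 94094), had 38.3, 27.9, 30.4, 33.9 and 36.9 CPM in saline mice and 59.5, 32.2, 66.2, 55.5 and 39.0 CPM in LPS. LPS replicate 2 lay within the saline range and the other 4 LPS mice above it. The mean rose from 33.5 ± 4.34 to 50.5 ± 14.3 CPM (log2 fold change 0.59 ± 0.21, adjusted p = 0.0204 in edgeR). The call was lost without saline replicate 2 (adjusted p = 0.0507) or without LPS replicate 3 (adjusted p = 0.0636). Of its longest transcript, 61.9% of 50-base windows were also found in other genes, 41.3% in Trim34b, so reads of these copies may have been split or dropped in counting.

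Trim30d (chromosome 7, 104470014 to 104507853; Entrez gene 209387), the neighbour of Trim30a, had 53.8, 73.4, 57.4, 61.1 and 51.1 CPM in saline. In LPS it had 88.9, 75.7, 87.6, 74.3 and 60.4 CPM. LPS replicate 5 fell inside the saline range, and the other 4 LPS mice were above all saline mice. The mean rose from 59.3 ± 8.71 to 77.4 ± 11.6 CPM (log2 fold change 0.38 ± 0.14, adjusted p = 0.0432 in edgeR). This call rested close to the threshold: leaving out saline replicate 1, 3, 4 or 5 or LPS replicate 1, 2 or 3 each ended it, with adjusted p = 0.0595 to 0.103. It was called in 12 of the 22 other settings tried, these included.

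**Figure D2:**
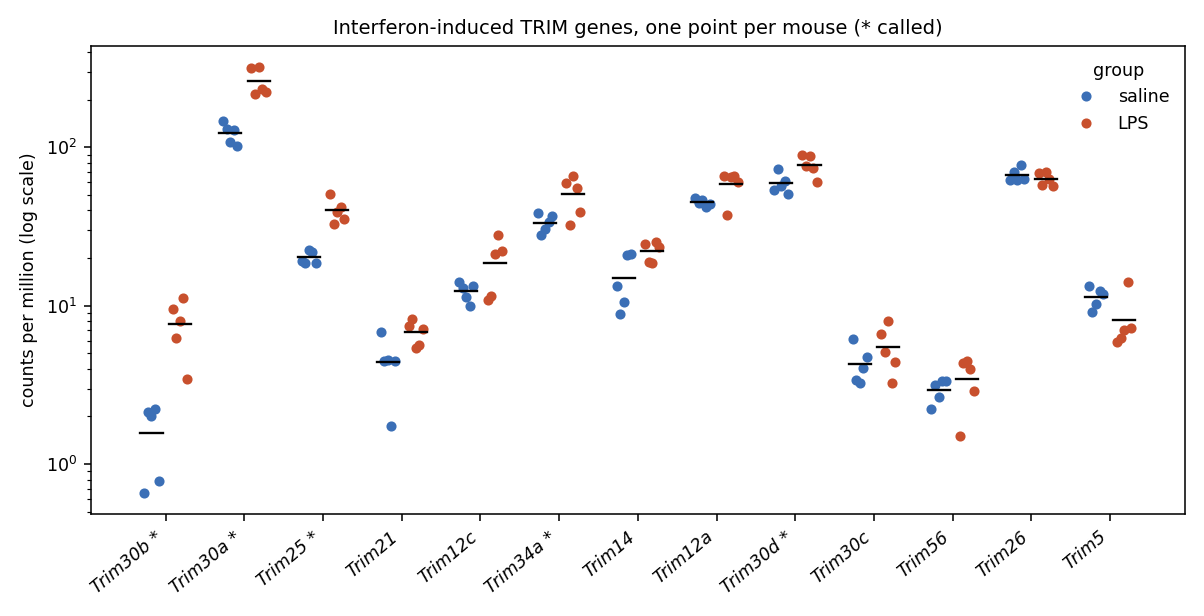
CPM (y axis, log scale) of the 13 interferon-induced TRIM genes in each mouse, saline in blue and LPS in red, with the group mean as a bar; an asterisk marks a called gene. Trim30b, Trim30a and Trim25 separate the groups completely.

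In the remaining 8 interferon-induced members no change was called, and 6 of their fold changes were positive, of which that of Trim30c turned to −0.14 with the length trend removed. Trim21, the cytosolic receptor for antibody-coated viruses, had 6.78, 4.50, 4.52, 1.75 and 4.49 CPM in saline mice and 7.45, 8.30, 5.43, 5.64 and 7.12 CPM in LPS. Saline replicate 1 lay within the LPS range. Its log2 fold change was 0.62 ± 0.33 (adjusted p = 0.106 in edgeR), and without saline replicate 1 it was 0.83 with adjusted p = 0.0469.

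Trim14, an adaptor of mitochondrial antiviral signalling that lacks a RING domain, had a mean of 14.9 ± 5.70 CPM in saline mice and 22.1 ± 3.11 CPM in LPS (adjusted p = 0.0650 in edgeR). It passed the threshold without saline replicate 4 (adjusted p = 0.0331) or 5 (adjusted p = 0.0289). In all, it was called in 9 of the 22 other settings. Among them were DESeq2 (adjusted p = 0.0489), limma-voom (adjusted p = 0.0429), RLE scaling, limma on log2 RPKM and the length trend removed. Of its longest transcript, 50.2% of 50-base windows were shared with Nans on the opposite strand, and no source used here says whether counting used strand.

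Trim12a and Trim12c, mouse relatives of the primate retrovirus restriction factor TRIM5, lie in the chromosome 7 cluster. Trim12a had 48.0, 44.8, 46.6, 42.2 and 44.1 CPM in saline mice and 66.3, 37.4, 64.5, 66.2 and 60.4 CPM in LPS. LPS replicate 2 was below every saline mouse, and the other 4 LPS mice were above all of them. Its log2 fold change was 0.39 ± 0.16 (adjusted p = 0.0551 in edgeR), and 0.51 without LPS replicate 2 (adjusted p = 0.00403). With the length trend removed it was 0.09 (adjusted p = 0.655 in edgeR). Trim12a was called in 3 of the 22 other settings. Trim12c had 14.0, 13.0, 11.4, 9.92 and 13.2 CPM in saline mice and 10.8, 11.4, 21.2, 28.1 and 22.1 CPM in LPS. LPS replicates 1 and 2 stayed within the saline range while the others were above it. Its log2 fold change was 0.61 ± 0.29 (adjusted p = 0.0617 in edgeR), with adjusted p = 0.0168 without LPS replicate 1 and 0.0238 without LPS replicate 2. Trim12c was called in 4 of the 22 other settings, DESeq2 (adjusted p = 0.0489) and the length trend removed among them.

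Trim5 and Trim26 had negative fold changes. Trim5 measured 13.3, 9.08, 10.3, 12.4 and 11.8 CPM in saline mice and 5.94, 6.30, 6.99, 14.1 and 7.28 CPM in LPS. LPS replicate 4 lay above every saline mouse and the other 4 LPS mice below every one. The log2 fold change was −0.48 ± 0.24 (adjusted p = 0.122 in edgeR). Without LPS replicate 4 it was −0.78, 1.71-fold lower in LPS, with adjusted p = 0.00433. Trim5 and Trim12c shared 24.7% and 24.5% of the 50-base windows of their longest transcripts with each other. Trim26, a ligase that acts on the transcription factor IRF3, had a mean of 66.8 ± 6.57 CPM in saline mice and 63.4 ± 6.34 CPM in LPS (log2 fold change −0.08 ± 0.09, adjusted p = 0.631 in edgeR, and 0.01 with the length trend removed). Trim30c and Trim56, the latter linked to DNA and RNA sensing, had log2 fold changes of 0.33 ± 0.27 and 0.23 ± 0.30 (adjusted p = 0.362 and 0.578 in edgeR).

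Of the 13 interferon-induced members, 8 lie in the chromosome 7 cluster around Trim5. In these, 4 were called higher, 0 lower, and the median log2 fold change was 0.49. Of all genes tested, 22.4% were higher and 22.5% lower. These 4 calls are among those already counted for the interferon-induced members. Those of Trim34a and Trim30d were lost when certain single mice were left out. The cluster supplied 29.1% ± 2.49 of the members' counts in saline and 43.7% ± 5.36 in LPS. Much of this was Trim30a, which alone supplied 12.3% ± 1.67 and 23.5% ± 3.74. Summed over the 13 interferon-induced members the level was 371 to 425 CPM in saline mice and 514 to 720 CPM in LPS. Trim30a alone had 102 to 147 CPM and 217 to 320 CPM of these. The other 25 members summed to 541 to 691 CPM in saline mice and 433 to 589 CPM in LPS, with overlapping ranges.

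Outside the interferon-induced list, chromatin-linked members were lower or not called. Trim24, Trim28 and Trim33 carry a plant homeodomain finger and a bromodomain, which in Trim24 and Trim33 read histone modifications. Trim33, known for its part in SMAD signalling (chromosome 3, 103279293 to 103358770; Entrez gene 94093), had 20.7, 26.0, 28.1, 36.1 and 22.0 CPM in saline mice and 19.0, 17.6, 14.5, 15.8 and 15.3 CPM in LPS. All 5 LPS mice were below all saline mice. Its mean fell from 26.6 ± 6.07 to 16.5 ± 1.81 CPM (log2 fold change −0.69 ± 0.16, 1.62-fold lower, adjusted p = 0.00512 in edgeR). With the length trend removed the call was lost (log2 fold change −0.16, adjusted p = 0.446).

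Trim24, a co-regulator of nuclear receptors (chromosome 6, 37870811 to 37968445; Entrez gene 21848), had 20.8, 13.7, 18.3, 23.3 and 19.6 CPM in saline. In LPS it had 13.1, 7.84, 6.60, 17.6 and 10 CPM. LPS replicate 4 lay within the saline range. The log2 fold change was −0.79 ± 0.28 (1.73-fold lower, adjusted p = 0.0191 in edgeR), and the call was lost without saline replicate 4 (adjusted p = 0.0501) and with the length trend removed (at −0.36, adjusted p = 0.213).

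Trim28, the co-repressor that KRAB zinc finger proteins recruit to silence retroelements (chromosome 7, 13024152 to 13031032; Entrez gene 21849), showed no detectable change. It had 92.3, 65.1, 84.6, 102 and 107 CPM in saline mice and 86.9, 101, 71.5, 97.4 and 83.8 CPM in LPS. The groups lay over each other. The mean was 90.2 ± 16.5 CPM in saline mice and 88.2 ± 11.8 CPM in LPS (log2 fold change −0.03 ± 0.15, adjusted p = 0.877 in edgeR). Its sign was positive in 7 of the 22 other settings tried.

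The NHL-repeat members Trim2, Trim3 and Trim32 are best known from neurons and muscle. Trim2, a ligase of neurofilament light chain (chromosome 3, 84160439 to 84308352; Entrez gene 80890), had 34.9, 39.6, 30.0, 38.9 and 33.9 CPM in saline. In LPS it had 10.2, 14.5, 15.4, 39.3 and 15.7 CPM. LPS replicate 4 stood among the saline mice, and the other 4 LPS mice were below all of them. The log2 fold change was −0.89 ± 0.33 (1.86-fold lower, adjusted p = 0.0204 in edgeR). Without LPS replicate 4 the fall was 2.53-fold (adjusted p = 1.50e-05), and without LPS replicate 3 the call was lost (adjusted p = 0.0528). It was also lost with the length trend removed (at −0.39, adjusted p = 0.189).

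Trim32, which is mutated in a limb-girdle muscular dystrophy (chromosome 4, 65604986 to 65616240; Entrez gene 69807), had 17.2, 29.3, 28.0, 28.2 and 23.6 CPM in saline mice and 16.2, 18.1, 20.2, 13.2 and 9.86 CPM in LPS. Saline replicate 1 lay within the LPS range. The mean fell from 25.3 ± 4.99 to 15.5 ± 4.08 CPM (log2 fold change −0.70 ± 0.23, 1.63-fold lower, adjusted p = 0.0143 in edgeR). Trim3 had 23.6, 14.2, 16.3, 23.2 and 15.2 CPM in saline mice and 21.0, 22.8, 21.8, 46.3 and 22.2 CPM in LPS. Apart from LPS replicate 4, the LPS mice lay within the saline range. No change was called for Trim3 (log2 fold change 0.53 ± 0.26, adjusted p = 0.0838 in edgeR).

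Trim23 showed the largest fall of the members. Trim23 pairs the ligase domains with an ARF GTPase domain and acts in virus-induced autophagy (chromosome 13, 104178839 to 104203475; Entrez gene 81003). It had 39.0, 53.6, 34.3, 52.8 and 32.6 CPM in saline mice and 20.8, 15.1, 18.6, 25.9 and 10.4 CPM in LPS. The groups did not overlap. The mean fell from 42.5 ± 10.1 to 18.2 ± 5.83 CPM (log2 fold change −1.22 ± 0.27, 2.34-fold lower, adjusted p = 0.000698 in edgeR).

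Trim36, the one COS-box member, binds microtubules and lies on chromosome 18. It had 28.8, 24.2, 29.1, 34.3 and 36.2 CPM in saline mice and 21.0, 25.0, 16.8, 14.5 and 22.0 CPM in LPS. LPS replicate 2 and saline replicate 2 crossed by less than 1 CPM, and the other LPS mice were below all saline mice. The log2 fold change was −0.62 ± 0.17 (1.54-fold lower, adjusted p = 0.0108 in edgeR). With the length trend removed it was −0.30 and no longer called (adjusted p = 0.222).

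Trim44 and Trim35 were also lower, but neither was called with the length trend removed (adjusted p = 0.307 and 0.0613). Trim44, which has a deubiquitinase-type zinc finger in place of a RING domain, had a mean of 35.2 ± 5.21 CPM in saline mice and 24.6 ± 5.08 CPM in LPS (log2 fold change −0.52 ± 0.15, adjusted p = 0.0192 in edgeR). Its call was lost without saline replicate 4 (adjusted p = 0.0573) or LPS replicate 3 (adjusted p = 0.0539). Trim35 had a mean of 48.4 ± 4.12 CPM in saline mice and 35.4 ± 5.26 CPM in LPS (log2 fold change −0.45 ± 0.10, adjusted p = 0.0134 in edgeR). In LPS, 4 mice lay between 32.3 and 34.8 CPM and replicate 4 at 44.6 CPM, within the saline range.

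Trim27 and Trim72 were the 2 members off the interferon-induced list that were higher. Trim27, also called ret finger protein (chromosome 13, 21179450 to 21194723; Entrez gene 19720), had 19.2, 9.76, 15.4, 15.5 and 18.3 CPM in saline mice and 21.5, 22.3, 18.9, 23.8 and 22.6 CPM in LPS. LPS replicate 3 fell below saline replicate 1, and the other LPS mice were above all saline mice. The log2 fold change was 0.48 ± 0.18 (adjusted p = 0.0440 in edgeR). Leaving out saline replicate 2, 3 or 4 or LPS replicate 1, 2, 4 or 5 each ended the call, with adjusted p = 0.0598 to 0.0884. So did library-size scaling, no filter and a term for ranges of mouse numbers (adjusted p = 0.0995, 0.0975 and 0.0870).

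Trim72, known for membrane repair in muscle (chromosome 7, 128003462 to 128011393; Entrez gene 434246), had 0.329, 1.02, 0.566, 0.312 and 0.498 CPM in saline. In LPS it had 1.34, 1.08, 1.16, 1.27 and 2.04 CPM. The groups did not overlap, at levels near 1 CPM. The log2 fold change was 1.35 ± 0.28 (adjusted p = 0.0239 in edgeR), and the call was lost without saline replicate 1, 3 or 4 or LPS replicate 5 (adjusted p = 0.0518 to 0.0714), with no filter (adjusted p = 0.0887) and with a term for ranges of mouse numbers (adjusted p = 0.0620). An antisense gene, Gm15533, covers 27.6% of its exonic bases, and the strand of the reads cannot be told from the counts.

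**Figure D3:**
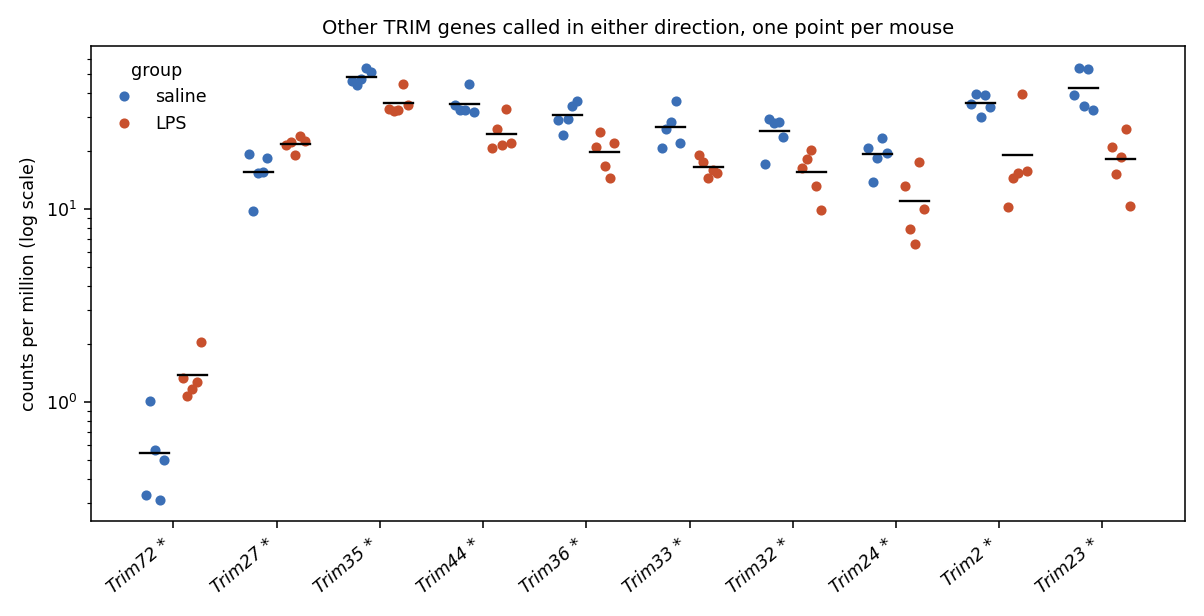
CPM (y axis, log scale) in each mouse of the 10 called TRIM genes that are not on the interferon-induced list, saline in blue and LPS in red, with group means as bars. Trim2 in LPS replicate 4, at 39.3 CPM, lies among the saline mice.

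Of the members not yet described, Trim65, a ligase of the RNA sensor MDA5, was 12.3 to 14.7 CPM in saline mice and 9.76 to 12.3 CPM in LPS. The highest LPS mouse lay just below the lowest saline mouse, yet the difference was not called (log2 fold change −0.30 ± 0.08, adjusted p = 0.130 in edgeR). Trim16, which acts in the autophagy of damaged organelles, had a log2 fold change of 0.78 ± 0.43 (adjusted p = 0.0812 in edgeR) and was called without saline replicate 2 (adjusted p = 0.0342) or LPS replicate 1 (adjusted p = 0.0124). Trim45 had a log2 fold change of −0.92 ± 0.36 (adjusted p = 0.0793 in edgeR), and was 2.32-fold lower without LPS replicate 4 (adjusted p = 0.0253). Trim8, a regulator of cytokine signalling, had 82.9, 54.5, 68.4, 68.6 and 82.8 CPM with saline and 44.7, 62.5, 41.2, 66.6 and 68.9 CPM after LPS. Trim13, anchored in the endoplasmic reticulum, had 9.42, 13.7, 14.8, 15.5 and 8.26 CPM with saline and 16.2, 10.7, 9.39, 9.25 and 5.79 CPM after LPS. The groups overlapped for both, and Trim8 and Trim13 had log2 fold changes of −0.33 ± 0.19 and −0.26 ± 0.30 (adjusted p = 0.132 and 0.432 in edgeR). With a term for ranges of mouse numbers Trim8 was called lower (log2 fold change −0.44, adjusted p = 0.0455). For Trim11, Trim17, Trim37, Trim39, Trim41, Trim47, Trim62 and Trim68 the log2 fold changes ran from −0.44 to 0.35, with edgeR adjusted p = 0.264 to 0.840.

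Levels of different genes were set side by side only as RPKM, which divides by gene length. Trim30a had the highest mean, at 30.2 ± 4.34 RPKM in saline and 65.7 ± 12.8 RPKM in LPS. In saline, Trim28 (27.5 ± 4.85 RPKM) and Trim12a (23.7 ± 1.39 RPKM) came next, each within 1 SD of the gene above it in the order. In LPS, Trim12a (31.6 ± 6.44 RPKM) and Trim28 (27.5 ± 3.69 RPKM) were next and overlapped each other, while Trim30a stood above both. In saline the next were Trim26 (20.3 ± 1.73 RPKM), Trim8 (17.2 ± 2.86 RPKM) and Trim30d (15.1 ± 2.27 RPKM). In LPS they were Trim30d (20.1 ± 3.02 RPKM), Trim26 (19.7 ± 1.92 RPKM) and Trim34a (19.0 ± 5.30 RPKM), whose spreads overlapped. Among NHL-repeat members Trim32 was highest in saline (6.85 ± 1.37 RPKM, Trim3 5.55 ± 1.28) and Trim3 in LPS (8.20 ± 3.21 RPKM, Trim32 4.30 ± 1.14). Trim36 stood at 6.22 ± 0.943 and 4.15 ± 0.922 RPKM and Trim13 at 6.67 ± 1.74 and 5.69 ± 2.12 RPKM in saline and LPS. Trim25, at 3.59 ± 0.333 and 7.26 ± 1.27 RPKM, and Trim30b, at 0.558 ± 0.278 and 2.80 ± 1.07 RPKM, were far less abundant per length than Trim30a in both groups.

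**Figure D4:**
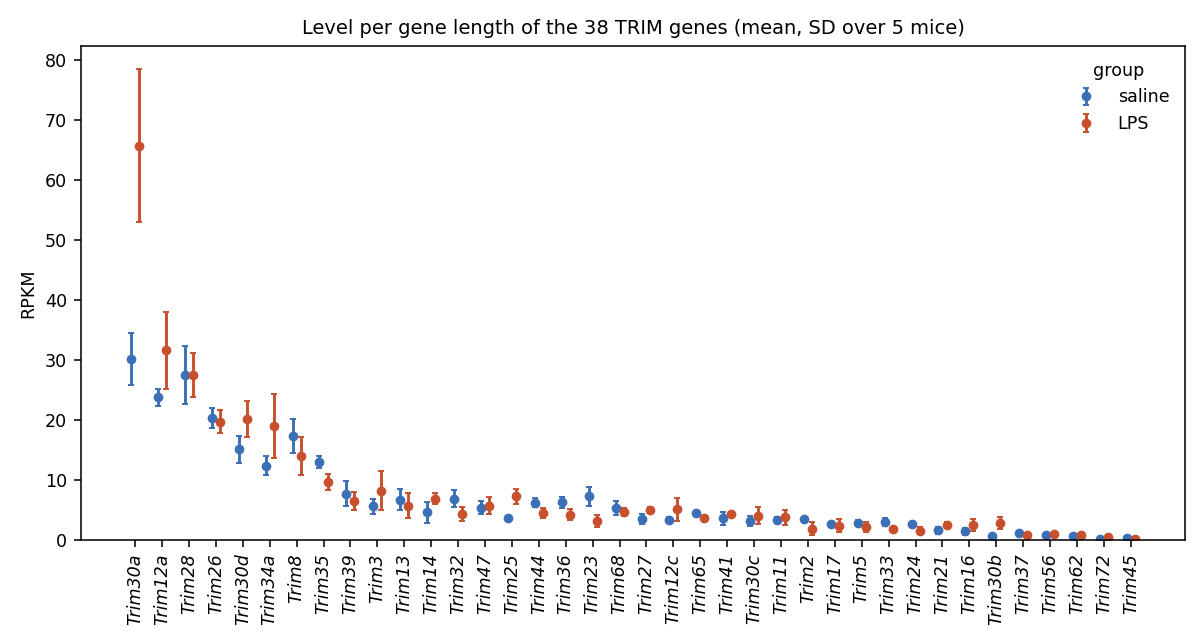
RPKM (y axis, mean with SD over 5 mice per group) of the 38 TRIM genes in order of their mean over all mice, saline in blue and LPS in red. Trim30a in LPS, at 65.7 RPKM, stands above the rest.

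Gene length moved with the difference between the groups. Tested genes were split by length into 5 equal classes. In the class of the shortest genes, 44.7% were higher in LPS and 5.53% lower, and in that of the longest 6.25% were higher and 44.6% lower. The class of the longest genes held 8 members, of which 4 were lower and 4 not called, and 0 of the 8 were on the interferon-induced list. The shortest held 1, Trim30c, which is on that list. The 4 lower members were Trim2, Trim24, Trim33 and Trim23, whose relative lengths ranked at the 96.2, 89.0, 93.9 and 81.1 percentile of tested genes. With each library's length trend removed, over 13199 genes of which 20.1% were higher and 18.4% lower, 12 members were higher and 2 lower.

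Under that fit Trim23 and Trim32 were still lower, at log2 fold changes of −0.85 and −0.54 (adjusted p = 0.00343 and 0.0435 in edgeR). The other 6 falls were no longer called. Their log2 fold changes became −0.39 for Trim2, −0.36 for Trim24, −0.30 for Trim36, −0.28 for Trim35, −0.16 for Trim33 and −0.16 for Trim44 (adjusted p = 0.0613 to 0.446 in edgeR). All 7 members that had been higher stayed so, among them Trim25 at 1.35, Trim30a at 1.33 and Trim30b at 2.26. Trim3, Trim12c, Trim14, Trim16 and Trim62 were added to the higher calls. Interferon-induced members then held 7 higher and 0 lower calls, and the others 5 higher and 2 lower.

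The enzymes and pathway proteins that TRIM ligases work with were read from fixed lists in the same fit. Of 4 family members under other symbols, 2 were tested. Pml, the founding component of the nuclear bodies named after it, was higher (28.0 ± 6.54 against 42.5 ± 7.70 CPM in LPS, log2 fold change 0.60 ± 0.18, adjusted p = 0.0127 in edgeR). Of 16 ubiquitin and ISG15 activating and conjugating enzymes, 15 were tested, with a median log2 fold change of −0.09. Of the tested enzymes, 2 were higher (13.3%) and 4 lower (26.7%), beside 22.4% and 22.5% of all genes tested. Ube2l6, the conjugating enzyme of the interferon-induced modifier ISG15, rose from 43.4 ± 7.63 to 73.8 ± 20.7 CPM (adjusted p = 0.00611 in edgeR). Uba7, the ISG15 activating enzyme, fell from 231 ± 35.2 to 151 ± 41.2 CPM (adjusted p = 0.0185 in edgeR), and is named after its value was seen. Ube2e3 fell from 37.1 ± 4.12 to 26.7 ± 2.33 CPM (adjusted p = 0.00934 in edgeR).

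Of 17 antiviral signalling genes, all tested, 7 were higher (41.2%) and 4 lower (23.5%), with a median log2 fold change of 0.22. Over all genes tested the shares were 22.4% higher and 22.5% lower. Irf7, an interferon-induced transcription factor, rose from 11.6 ± 1.39 to 202 ± 71.2 CPM (log2 fold change 4.12 ± 0.28, adjusted p = 7.23e-08 in edgeR). Stat2, a part of the interferon-activated ISGF3 complex, rose from 37.0 ± 5.68 to 121 ± 32.7 CPM (log2 fold change 1.71 ± 0.21, adjusted p = 1.04e-05 in edgeR). Direct partners of members, named after their values were seen, differed in direction. The RNA of Tab2, whose protein is the target of Trim30a, fell from 162 ± 12.7 to 93.5 ± 8.26 CPM (adjusted p = 0.000129 in edgeR). The known action of Trim30a is on the TAB2 protein, which was not measured. Ifih1, which encodes MDA5, rose from 28.3 ± 3.27 to 47.8 ± 4.91 CPM (adjusted p = 0.000430 in edgeR). Ddx58, which encodes RIG-I, had 47.4 ± 9.01 CPM in saline mice and 55.3 ± 14.6 CPM in LPS and was not called (adjusted p = 0.343 in edgeR).

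Among 8 partners of the chromatin-linked members, 1 was higher (12.5%) and 1 lower (12.5%), beside 22.4% and 22.5% of all genes tested. Smad3 fell from 136 ± 12.8 to 81.7 ± 28.1 CPM (adjusted p = 0.00927 in edgeR), and Chd3, a chromatin remodeller, rose from 9.22 ± 3.04 to 15.1 ± 4.36 CPM (adjusted p = 0.0351 in edgeR). Over all the lists beside the members, 11 genes were higher and 9 lower. With the length trend removed these became 15 and 4, and that fit is not given here gene by gene for these lists.

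Markers of the sorted cells were present in every library but at other levels after LPS. The 7 microglial markers summed to 38801 to 48224 CPM in saline mice and 8729 to 17424 CPM in LPS, and 5 of the 7 were lower. P2ry12 fell from 21585 ± 3362 to 2419 ± 1024 CPM, and Fcrls from 8489 ± 504 to 3524 ± 1559 CPM, while Tmem119 and Aif1 were not called (adjusted p = 0.302 and 0.818 in edgeR). The 6 monocyte markers summed to 12.2 to 20.9 CPM in saline mice and 50.7 to 172 CPM in LPS. Of these Ms4a4c rose from 4.19 ± 1.68 to 99.4 ± 46.3 CPM and Ccr2 fell from 10.2 ± 2.93 to 2.45 ± 1.54 CPM. The 6 neutrophil markers summed to at most 0.312 CPM in saline mice and to 0.167 to 18.7 CPM in LPS, and none was tested. The 6 markers of border-associated macrophages summed to 11.2 to 15.3 CPM in saline mice and 8.81 to 30.9 CPM in LPS, and the 7 lymphocyte markers to at most 2.26 CPM in any library. The 5 endothelial markers summed to 60.5 to 84.1 CPM in saline mice and 46.4 to 141 CPM in LPS, with Cldn5 at 0 in all libraries. Within that list Ly6a rose from 7.46 ± 2.19 to 81.0 ± 46.0 CPM, while Pecam1 fell from 54.1 ± 10.3 to 7.05 ± 2.38 CPM and Kdr from 5.85 ± 1.38 to 2.37 ± 1.01 CPM. The part of these cell markers in the TRIM differences was not tested, and in bulk samples fewer cells of a type and less RNA per cell cannot be told apart.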

How the data were processed

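RNA of sorted microglia was amplified with a SMARTer ultra low kit and made into Ovation libraries, per the labels' protocols. The authors deposited a count table, made with featureCounts on GRCm38 (mm10), per the submitters' processing notes. No source used here gives the aligner, annotation or strand setting. The authors also deposited 2 tables of RPKM values normalised by a method (CRAC) not explained there; levels per length and relative gene lengths came from the larger, with 13199 genes. One line without a gene name was left out, and 15 names turned into dates were restored from the Entrez ID.

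The count test was that of edgeR 4.0.16 under R 4.3.3 (TMM, filterByExpr, quasi-likelihood F test, Benjamini-Hochberg at 0.05) with no covariate. Standard errors come from log2 CPM with a prior count of 2. Alternatives were RLE, upper-quartile or library-size scaling, other filters, DESeq2 1.42.0, limma-voom and limma 3.58.1 on log2(RPKM + 1) or log2(RPKM + 0.1), a term for ranges of mouse numbers, removal of each library's length trend, and each mouse left out. The fit was also run on simulated counts with changes planted at random and no length trend. That run cannot show how the length trend of these libraries is handled. No pair of libraries agreed within sampling noise (chi-square per degree of freedom at least 13.4). Coordinates and promoters came from RefSeq (GRCm38.p6), shared transcript windows and exon overlaps from GENCODE. Replicate numbers only name mice in accession order.

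Members and lists were chosen with earlier results of these data known. Per-mouse values were given for called interferon-induced members (up to 10), for up to 6 other members called in each direction with the largest fold change and at least 1 CPM on average, for the most abundant of each role, and for Trim30a, Trim21, Trim25 and Trim28. Values of further members were added after they were seen: Trim72, and those whose calls turned on single mice. Reads carry no molecular identifiers. One gene of a cell marker list is not reported here and was taken out of its sum after that had been computed.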

Additional observations from a re-analysis of the deposited data

Results flagged for a closer look

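In 7 of the 76 groups of 5 mice (38 members in each treatment), 1 mouse stood apart from the other 4 of its group by Dixon's criterion. Chance marks about 1 in 20 such groups.

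LPS replicate 4 accounted for 4 of the 7. Of the LPS libraries it had the lowest microglial marker sum (8729 CPM) and the highest neutrophil marker sum (18.7 CPM). Its chi-square per degree of freedom against the other LPS libraries was 70.9 to 110, beside 24.6 to 73.9 among those others. The part of these differences in the TRIM values was not tested. In that mouse Trim2 was at 39.3 CPM (the other LPS mice 10.2 to 15.7), Trim3 at 46.3 CPM (21.0 to 22.8), Trim35 at 44.6 CPM (32.3 to 34.8) and Trim5 at 14.1 CPM (5.94 to 7.28). Without it Trim2 was 2.53-fold lower and Trim5 1.71-fold lower in LPS (edgeR adjusted p = 1.50e-05 and 0.00433), Trim35 was 1.46-fold lower (adjusted p = 0.00198), and Trim3 had a log2 fold change of 0.25 (adjusted p = 0.251).

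Trim12a in LPS replicate 2 was at 37.4 CPM, with the other LPS mice at 60.4 to 66.3. Trim72 in LPS replicate 5 was at 2.04 CPM, with the others at 1.08 to 1.34. Trim44 in saline replicate 4 was at 44.3 CPM, with the other saline mice at 31.7 to 34.7.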

How the results depend on the processing

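Over 22 alternative settings, 826 fold changes of members were recomputed, and 747 kept their direction and their side of the threshold. Another 38 lost a call, 25 gained one and 16 changed sign. Trim30a, Trim30b, Trim25, Trim23 and Trim32 were called in the same direction in all 22. With the length trend removed, 12 members were higher and 2 lower in place of 7 and 8, the 25 other members had 5 higher and 2 lower in place of 2 and 8, and the genes beside the members had 4 lower in place of 9; fewer genes were tested there. With no filter 4 members were higher, 0 of them off the interferon-induced list. Off that list, higher calls numbered 0 with ranges of mouse numbers as a term and 1 with library-size scaling, and the cause was not tested. They numbered 1 each with log2(RPKM + 1) and log2(RPKM + 0.1) at a mean of at least 1. Trim72, at a mean of 0.311 RPKM, was below that minimum and not tested there.

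Leaving out 1 mouse at a time gave 4 to 7 higher and 6 to 10 lower calls among all members, 3 to 6 higher and 0 to 1 lower among interferon-induced members, 0 to 2 higher and 6 to 9 lower among the others, and 10 to 12 higher and 6 to 10 lower among the genes beside them. The 4 came without saline replicate 3, the 3 without LPS replicate 3, and the 1 lower call was Trim5 without LPS replicate 4.

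Signs changed only for members that were not called. Trim28 had log2 fold changes of 0.0085, 0.0091 and 0.0085 in the RPKM fits, 0.050 with the length trend removed and −0.12 to 0.039 with 1 mouse left out. Trim47 had −0.037 with library-size scaling, −0.0052 with ranges of mouse numbers, −0.15 with the length trend removed and −0.035 to 0.17 with 1 mouse left out. Trim26 had 0.013 and Trim30c −0.14 with the length trend removed, and Trim11 had −0.0024 to 0.29 with 1 mouse left out. No paired analysis was possible because the labels give no number that pairs a saline mouse with an LPS mouse. Some mouse numbers are adjacent across the groups and others are not, and the labels do not say what this means. Ranges of mouse numbers, each with mice of both groups, entered as a term instead. Under that term Trim8 gained a call and Trim27 and Trim72 lost theirs. The lowest count sums were those of Trim72 (127) and Trim45 (279).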
